A study of Homo sapiens with 60 samples.

Results

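Expression of 36 human genes of cholesterol synthesis, sterol sensing, fatty acid synthesis and the liver X receptors (LXR) was followed in A549 cells, a lung adenocarcinoma line with features of alveolar type II cells, after 24 h with plant extracts. The genes were taken by their Ensembl identifiers from a table of 60675 genes, and all 36 were found and passed the filter on low counts. Of these, 18 belong to sterol synthesis, 4 to sterol sensing and transport, 8 to fatty acid synthesis and 6 to the LXR receptors and their targets. The cells received hot-water extracts of 2 single herbs (Menthae Herba, Saposhnikoviae Radix) and of 4 herb mixtures (Okbyeongpung-san, Soyo-san, Guibi-tang, Saengmaek-san), each at 500, 100 and 20 µg/mL with 3 libraries per dose, and Soshiho-tang at the same doses with 1 library per dose. They were set against 3 vehicle libraries, given 0.1% DMSO by the sample labels and 2% by the description of the series. For the extract libraries the labels give no DMSO content, so whether their solvent differed from that of vehicle is not known. Every group is the same A549 line, so the results hold for 1 line only. The description of the series says that doses were lowered for extracts with an IC20 under 500 µg/mL, while the labels print 500, 100 and 20 for all; ethanol extracts and wortmannin were not analysed here. Nothing in the labels says that replicate libraries are separate cultures. A p-value here reflects the spread among the libraries sequenced, pooled for each gene over all groups of a fit, which may be technical.

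Cells read their sterol content through the SREBP factors, the products of SREBF1 and SREBF2, which are kept in the endoplasmic reticulum by INSIG proteins while sterol is plentiful and are cut and released to the nucleus when it falls. Released SREBP switches on the enzymes of sterol and fatty acid synthesis, and also INSIG1, so that INSIG1 and HMGCS1 are common readouts of the pathway. The LXR receptors answer to oxidised sterols and switch on the export pumps ABCA1 and ABCG1, SREBF1 and enzymes of fatty acid and phospholipid remodelling. Type II cells of the lung depend on these pathways for the lipids of surfactant.

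Promoters of 4 genes are shown because the results turn on these genes (INSIG1, HMGCS1, ABCA1) or because the window holds the exact sterol element (SREBF2). They are RefSeq windows on GRCh38.p14, from 250 bases before to 50 bases after the start of the gene. Capitals mark the NF-Y box CCAAT, on the opposite strand and so read as ATTGG, in INSIG1 and HMGCS1; the sterol regulatory element in SREBF2; and in ABCA1 an LXR-type direct repeat, on the opposite strand. INSIG1 lies at chr7:155297628-155297927 on the plus strand, HMGCS1 at chr5:43313363-43313662 on the minus strand, SREBF2 at chr22:41832855-41833154 on the plus strand and ABCA1 at chr9:104928106-104928405 on the minus strand.
INSIG1: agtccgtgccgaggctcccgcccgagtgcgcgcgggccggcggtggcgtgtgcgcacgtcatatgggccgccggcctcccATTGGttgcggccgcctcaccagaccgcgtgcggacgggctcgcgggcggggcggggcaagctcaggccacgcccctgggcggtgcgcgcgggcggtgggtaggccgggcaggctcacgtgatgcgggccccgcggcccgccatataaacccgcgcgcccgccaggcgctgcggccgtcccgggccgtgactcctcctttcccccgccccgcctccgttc
HMGCS1: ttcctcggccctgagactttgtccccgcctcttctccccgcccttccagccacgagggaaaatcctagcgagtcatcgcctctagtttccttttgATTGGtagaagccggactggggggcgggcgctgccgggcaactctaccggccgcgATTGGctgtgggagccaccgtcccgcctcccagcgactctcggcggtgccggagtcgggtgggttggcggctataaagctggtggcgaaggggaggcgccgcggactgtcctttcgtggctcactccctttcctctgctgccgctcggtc
SREBF2: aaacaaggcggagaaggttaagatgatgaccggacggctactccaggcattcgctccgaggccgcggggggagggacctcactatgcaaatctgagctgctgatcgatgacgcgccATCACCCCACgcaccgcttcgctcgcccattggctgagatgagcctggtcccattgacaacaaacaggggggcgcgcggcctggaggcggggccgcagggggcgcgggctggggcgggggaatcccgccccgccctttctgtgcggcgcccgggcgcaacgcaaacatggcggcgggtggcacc
ABCA1: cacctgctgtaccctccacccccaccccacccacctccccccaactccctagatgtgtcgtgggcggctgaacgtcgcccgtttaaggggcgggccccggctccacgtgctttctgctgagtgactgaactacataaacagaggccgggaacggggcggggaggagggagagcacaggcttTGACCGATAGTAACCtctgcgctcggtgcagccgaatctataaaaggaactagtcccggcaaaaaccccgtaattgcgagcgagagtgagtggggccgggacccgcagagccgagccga
Both strands of such windows were searched, and 31 of the 36 genes matched, with 44 windows, as some genes have several starts; ABCG1, ACAT2, FASN, FDFT1 and SQLE were not matched. The NF-Y box CCAAT was in 28 of the 44 windows (63.6%), against 34.6% of all 35116 windows. The Sp1 box GGGCGG was in 38 of the 44 (86.4%), against 44.95% of all. The sterol element TCACNCCAC was in 1 of the 44 (2.27%), the SREBF2 window shown above, against 1.13% of all. The LXR-type direct repeat (GGTNA, then NNNNN, then GGTNA) was in 2 of the 44 (4.55%), the ABCA1 window shown and the other window of HMGCS1, against 0.627% of all. In SREBF2 the match to the looser sterol element lies inside the exact one, and other overlaps between motifs were not counted. A match is a description of letters, not a binding site.

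Library totals ran from 18330631 to 35308811 counts. The 36 genes together held 0.430 to 0.651% of a library. Of the epithelial markers, KRT8 had 2657 to 3639 CPM (counts scaled to a common library size) and KRT18 2229 to 2884, CDH1 26.5 to 41.7 and EPCAM 3.76 to 6.23. The leukocyte markers PTPRC and CD3E were at or near 0, and CD68 had 6.62 to 19.02 CPM. Of the fibroblast markers, COL1A1 had 25.9 to 40.7 CPM and PDGFRB 0 to 0.374. The endothelial markers PECAM1 (0 to 0.280 CPM) and VWF (0 to 0.176 CPM) were near 0. Libraries changed in a step after the 31st of the library order. The share of mitochondrially encoded counts was 16.1% ± 2.26 in the last 29 libraries and 11.9% ± 0.747 in the first 31 (SD), and the step held 76.3% of the first principal component, which held 34.3% of the variance. Vehicle and both herbs lie before the step, and Soyo-san, Okbyeongpung-san and Soshiho-tang after it. Saengmaek-san and Guibi-tang have libraries on both sides in each of their 6 groups. By their library names the vehicle libraries are a set of their own (B1). The herbs are in set 5, Saengmaek-san and Guibi-tang in 6, Soyo-san and Okbyeongpung-san in 7 and Soshiho-tang in 8. What a set shares is not stated. In every comparison with vehicle, before the step too, extract and set cannot be told apart.

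Members differed across the step within groups. Over the 6 groups with libraries on both sides, 28 of the 36 members averaged lower after the step, against 52.1% of all genes tested, and the median difference of the members was -0.11 on the log2 scale, against -0.0076 over all genes. PMVK, the kinase that adds the second phosphate to mevalonate, differed by -0.46, LSS, which closes the sterol ring, by -0.31, ABCG1 by -0.27, the sterol carrier STARD4 by -0.25 and ABCA1 by -0.21. INSIG1 went the other way, at 0.10, higher after than before the step in all 6 groups. The same held for SC5D (0.19), NR1H3 (0.15), LPCAT3 (0.08) and SQLE (0.07). For this reason the comparisons with vehicle are described from the fit of all 57 replicated libraries and then also from a fit with the step as a term, and, where both groups have at least 2 libraries before the step, from those libraries alone.

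Changes of the 36 genes at 500 µg/mL against vehicle were small in the 6 replicated extracts. Of 216 values of log2 fold change (36 genes in 6 extracts), 139 lay within 0.1 of 0, with a median standard error of 0.0565. They ran from -0.28 for PMVK in Okbyeongpung-san (adjusted p = 0.346; 0.19 with the step term described above, so its direction flips) to 0.39 for ABCG1 in Menthae Herba (adjusted p = 0.482, edgeR's quasi-likelihood test with Benjamini-Hochberg adjustment, here and below). ABCG1 rests on 7 to 34 counts per library. In all, 4 of the 216 values were called higher and 4 lower at an adjusted p under 0.05. The share of all genes called was 6.77% in Menthae Herba, 1.56% in Saposhnikoviae Radix, 0.614% in Saengmaek-san, 4.42% in Guibi-tang, 6.03% in Soyo-san and 3.39% in Okbyeongpung-san. In these bulk samples fewer cells and less RNA per cell cannot be told apart.

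**Figure D1:**
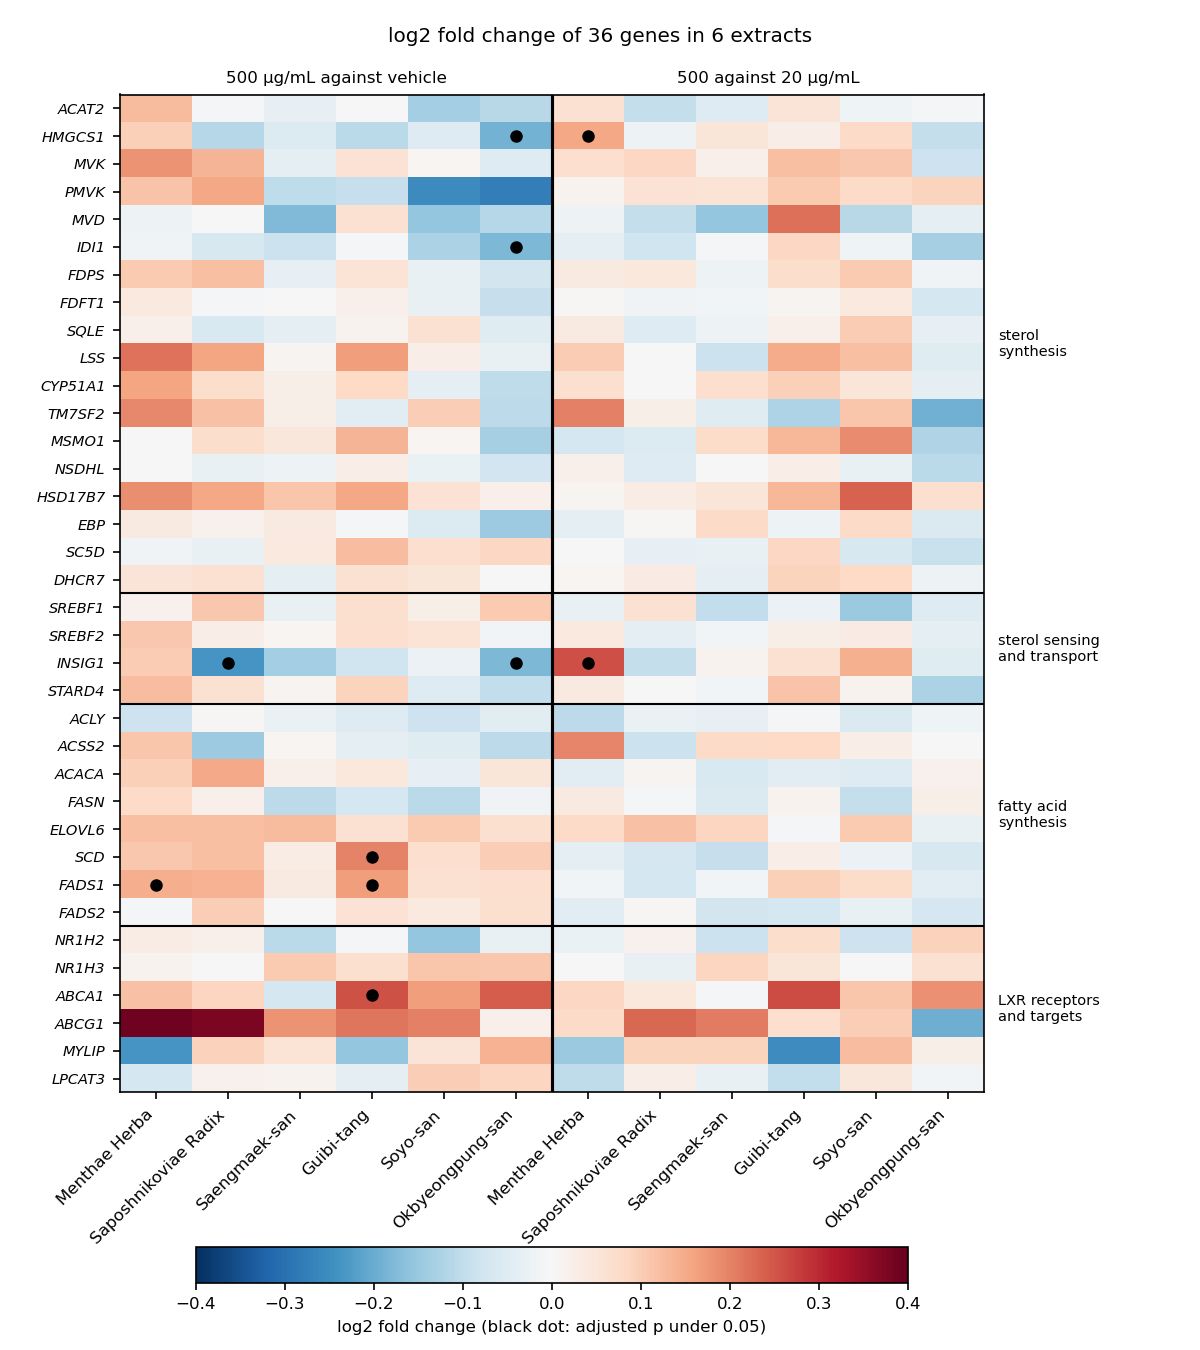
Log2 fold change of each of the 36 genes (rows, grouped by role) at 500 µg/mL against vehicle (left 6 columns) and 500 against 20 µg/mL (right 6 columns); black dots mark adjusted p under 0.05. Dots fall on INSIG1, HMGCS1, IDI1, SCD, FADS1 and ABCA1, and the darkest cells without a dot are those of ABCG1, at 0.39 and 0.38 in the 2 herbs.

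Among the 18 sterol synthesis genes, none was called in 5 of the 6 extracts at 500 against vehicle, and 2 fell in Okbyeongpung-san. In Okbyeongpung-san 16 of the 18 lay below vehicle, with a median of -0.10, but with the step term 11 lay above it, with a median of 0.02. In Menthae Herba 14 lay above, with a median of 0.07, both with and without the term. Over all genes tested the median was within 0.01 of 0 in every comparison. HMGCS1, the synthase that makes the HMG-CoA from which mevalonate is formed, had 144, 151 and 154 CPM in Okbyeongpung-san 500, against 172, 171 and 169 CPM in vehicle. The libraries did not overlap, and the log2 fold change was -0.19 ± 0.0444 (SE; adjusted p = 0.00916). IDI1, which isomerises isopentenyl diphosphate, had 51.75, 51.96 and 49.97 CPM in Okbyeongpung-san 500, against 57.9, 57.8 and 58.3 CPM in vehicle. It fell by 0.18 ± 0.0469 on the log2 scale (adjusted p = 0.0191). All Okbyeongpung-san libraries lie after the step and all vehicle libraries before it. With the step term HMGCS1 was at -0.07 (adjusted p = 0.239) and IDI1 at -0.08 (adjusted p = 0.302), so step and extract cannot be told apart for these calls. The IDI1 call was also lost in 5 of 6 fits that left out 1 library, and the HMGCS1 call in 1, without Okbyeongpung-san 500 replicate 1 (adjusted p = 0.0836).

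INSIG1, the sterol-dependent anchor of SREBP, was called lower in 2 of the 6 extracts at 500 against vehicle. In Saposhnikoviae Radix 500 it had 33.7, 32.1 and 32.1 CPM, against 37.5, 40.2 and 37.7 CPM in vehicle. Each treated library lay below each vehicle library, and INSIG1 fell by 0.24 ± 0.0514 on the log2 scale (adjusted p = 0.00678); it was the only member called in that comparison, where 1.56% of all genes were called and 0.643% were lower. Both groups lie before the step, and those libraries alone gave -0.23 (adjusted p = 0.00021); leaving out vehicle replicate 2 gave -0.20 with an adjusted p of 0.0932. In Okbyeongpung-san 500 INSIG1 had 35.1, 33.3 and 33.8 CPM and fell by 0.18 ± 0.0516 against vehicle (adjusted p = 0.0406). That comparison called 3.39% of all genes, 1.43% lower, and 3 of 36 members, all of them lower. With the step term INSIG1 was at -0.28 (adjusted p = 0.000223) in Okbyeongpung-san, but each of the 6 fits without 1 library lost the call, with adjusted p of 0.0595 to 0.227.

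The other genes of sterol sensing and transport were not called at 500 against vehicle. SREBF1 ran from -0.03 in Saengmaek-san to 0.11 in Saposhnikoviae Radix, and SREBF2 from -0.01 in Okbyeongpung-san to 0.11 in Menthae Herba. SREBF1 passed once, at the lowest dose of Soyo-san, with 220.0, 202.2 and 210.6 CPM in Soyo-san 20, against 187.5, 191.5 and 181.9 CPM in vehicle. The groups did not overlap, at 0.17 ± 0.0489 (adjusted p = 0.0476), in a comparison that called 1.99% of all genes, 1.04% higher. All 6 fits without 1 library lost that call (adjusted p 0.0678 to 0.198), and the groups lie on different sides of the step; with the step term SREBF1 was at 0.18 (adjusted p = 0.0558).

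Genes of fatty acid synthesis gave 3 calls at 500 against vehicle, all higher. FADS1, a desaturase of polyunsaturated fatty acids, had 384.4, 382.2 and 364.5 CPM in Menthae Herba 500, against 338, 341 and 343 CPM in vehicle. It rose by 0.14 ± 0.0426 (adjusted p = 0.0284), the only member called in Menthae Herba, where 6.77% of all genes were called and 3.34% were higher. In Guibi-tang 500 FADS1 had 397, 389 and 362 CPM and rose by 0.17 ± 0.0427 (adjusted p = 0.0126). Leaving out 1 library lost the FADS1 call in 5 of 6 fits in Menthae Herba (adjusted p up to 0.131) and in 4 of 6 in Guibi-tang (adjusted p up to 0.0992). SCD, which makes monounsaturated from saturated fatty acids, had 1164, 1173 and 1158 CPM in Guibi-tang 500, against 1002, 1058 and 983 CPM in vehicle. It rose by 0.20 ± 0.0374 (adjusted p = 0.000383), and all 6 fits without 1 library kept the call. Guibi-tang called 4.42% of all genes, 2.63% higher, and 3 members, all higher. Saengmaek-san called no member (0.614% of all genes). FASN, the fatty acid synthase, was called in none, at -0.11 (Soyo-san) to 0.08 (Menthae Herba).

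The LXR receptors and their targets gave 1 call, ABCA1 in Guibi-tang. ABCA1, which loads cholesterol onto apolipoproteins, had 17.27, 19.01 and 16.00 CPM in Guibi-tang 500, against 14.1, 14.8 and 15.1 CPM in vehicle. It rose by 0.25 ± 0.0755 (adjusted p = 0.041). The lowest of the 3 Guibi-tang libraries is the one after the step; the libraries before the step alone gave 0.31 (adjusted p = 0.000746). Across all libraries the call was lost in 5 of 6 fits without 1 library, with adjusted p up to 0.304 without Guibi-tang 500 replicate 2. In Okbyeongpung-san 500 ABCA1 had 17.2, 17.1 and 17.7 CPM, all above vehicle, at 0.24 ± 0.0752 (adjusted p = 0.0626). The receptors NR1H3 (LXR alpha) and NR1H2 (LXR beta) were called in none of the 18 comparisons with vehicle. NR1H3 had values of 0 to 0.11 at 500, and NR1H2 of -0.15 (Soyo-san) to 0.03 (Menthae Herba).

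**Figure D2:**
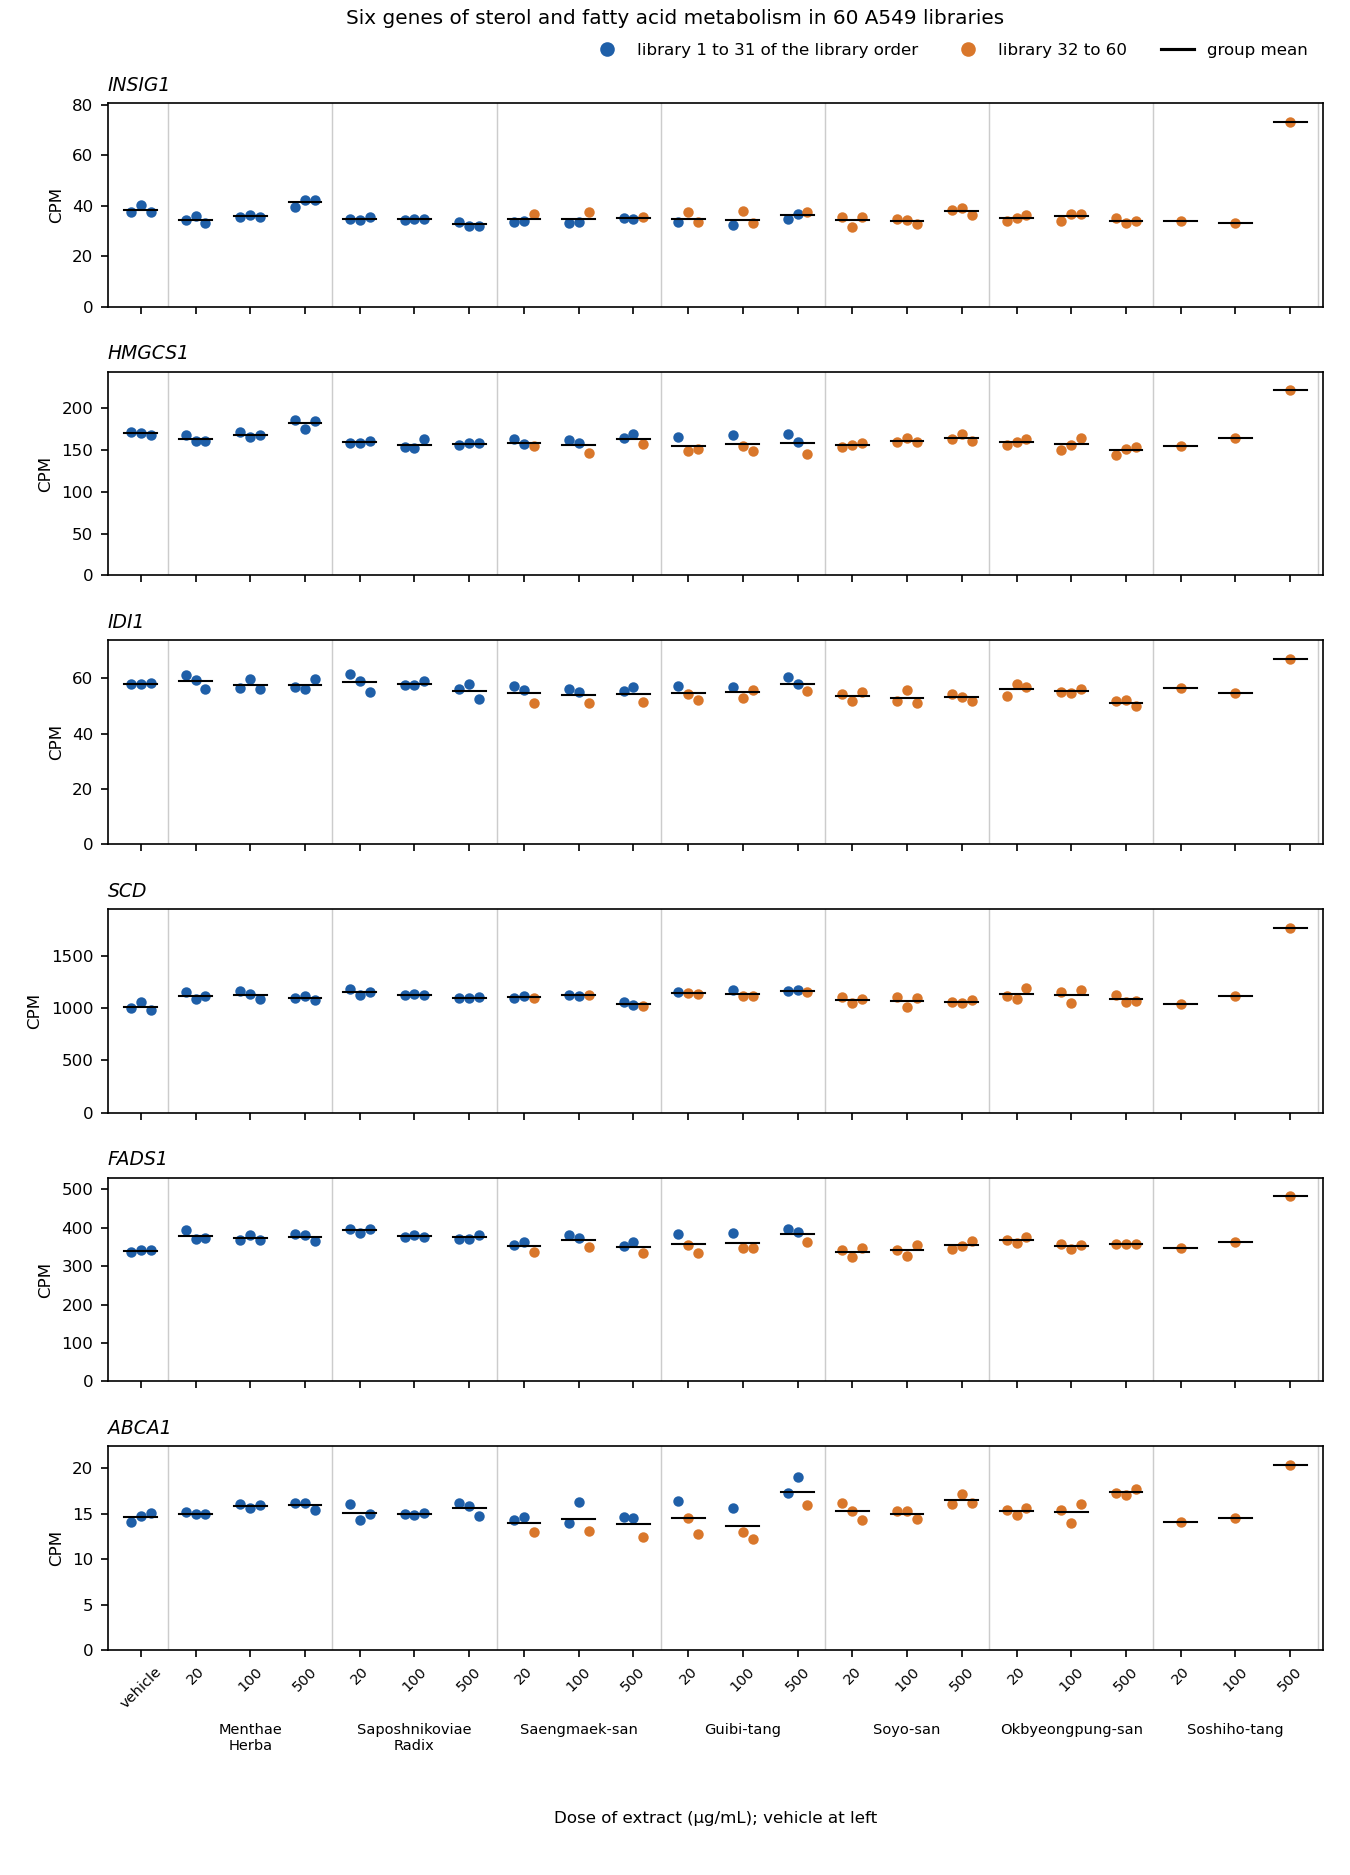
Level in CPM (vertical axes, from 0) of 6 genes in each of the 60 libraries, in vehicle and in each extract at 20, 100 and 500 µg/mL; dots are libraries, coloured by their side of the library-order step, and black bars are group means. INSIG1 was at 42.4, 42.3 and 39.4 CPM in Menthae Herba 500, and the single Soshiho-tang 500 library tops every panel.

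From the libraries before the step alone, 9 members were higher and 1 lower in Menthae Herba 500 against vehicle (15.2% of all genes called), 7 higher and 2 lower in Saposhnikoviae Radix 500 (9.39%), and 7 higher and none lower in Guibi-tang 500 (10.5%); in Saengmaek-san 500 the count was 0 (2.13%). LSS was at 0.22 in Menthae Herba, 0.16 in Saposhnikoviae Radix and 0.28 in Guibi-tang, each higher (adjusted p = 0.00258, 0.0391 and 0.00118). FADS1 and SCD were also higher in all 3. MVK (mevalonate kinase), ACACA (acetyl-CoA carboxylase), FDPS and ELOVL6 were higher in both herbs. HMGCS1 was at 0.10 in Menthae Herba (adjusted p = 0.0246) and -0.11 in Saposhnikoviae Radix (adjusted p = 0.0174). These comparisons share the 3 vehicle libraries, which are a set of their own, so they do not separate extract from set. In the fit of 57 libraries the spread is pooled over all groups, including those with libraries on both sides of the step. FADS1 in Menthae Herba 500 was at 0.1444 ± 0.0426 (SE) in that fit and at 0.1473 ± 0.0266 here. INSIG1 in Saposhnikoviae Radix 500 was at -0.2364 ± 0.0514 and -0.235 ± 0.0377. The added calls in the herbs thus need not be larger changes.

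With the step as a term in the fit of 57 libraries, 6 members were higher in Menthae Herba (12.2% of all genes called), 3 higher and 2 lower in Saposhnikoviae Radix (5.80%), 1 lower in Saengmaek-san (2.18%), 6 higher in Guibi-tang (10.0%), 4 higher in Soyo-san (11.7%), and 4 higher and 2 lower in Okbyeongpung-san (12.5%). The 1 in Saengmaek-san was INSIG1, at -0.17 (adjusted p = 0.0338). In Soyo-san, called for no member without the term (6.03% of all genes called), ABCA1 was at 0.40 (adjusted p = 3.08e-05), LSS at 0.34, MSMO1 at 0.18 and FADS1 at 0.18. In Okbyeongpung-san ABCA1 was at 0.47 (adjusted p = 3.09e-06), LSS at 0.28, FADS1 at 0.18 and ACACA at 0.17, while INSIG1 and FDFT1 were lower. The term is estimated from the Saengmaek-san and Guibi-tang groups, and whether the step had the same size in the other extracts was not tested.

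**Figure D3:**
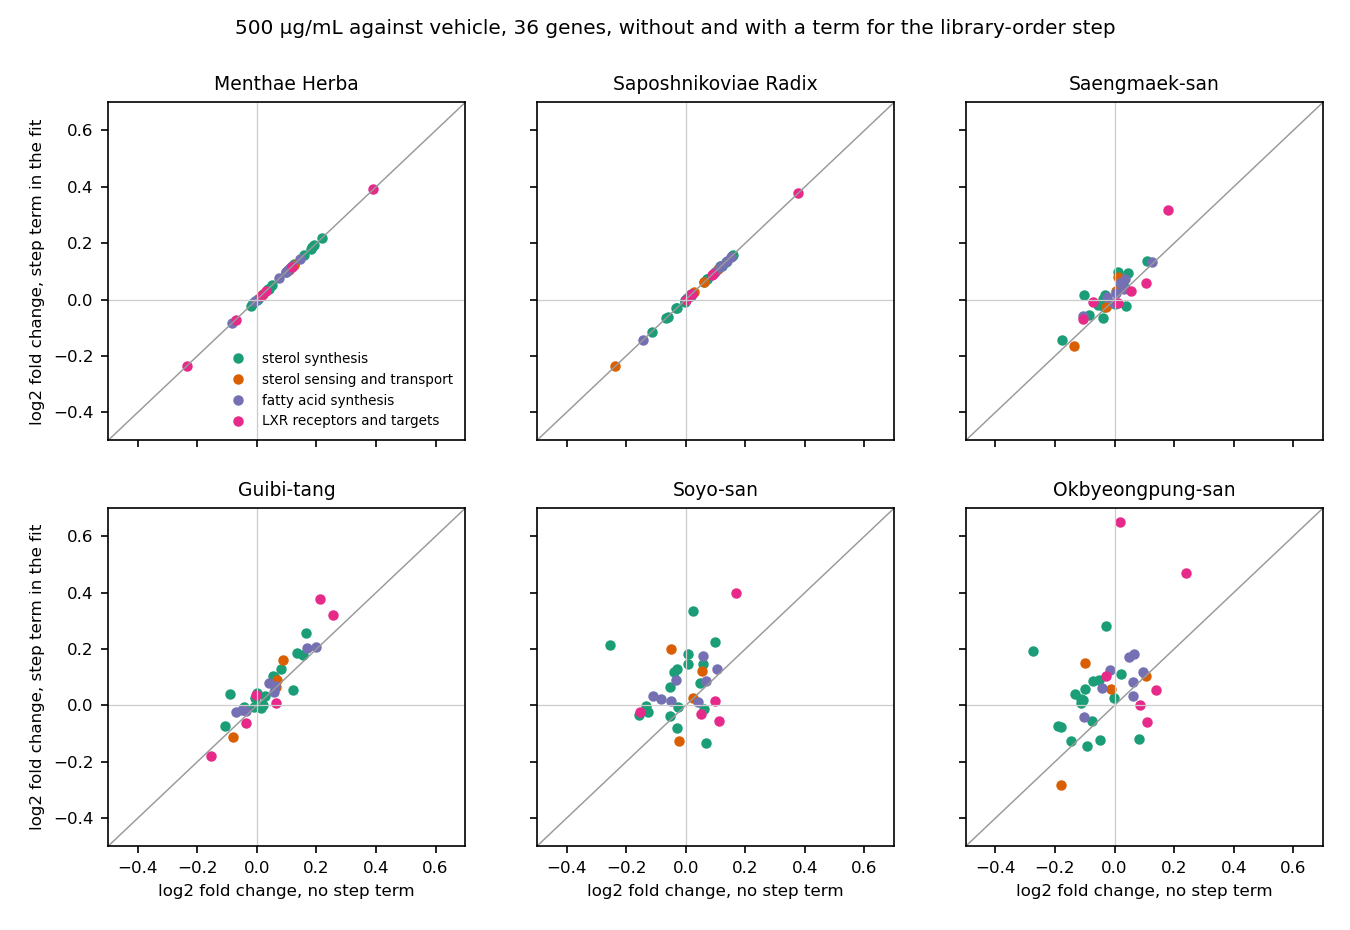
Log2 fold change at 500 µg/mL against vehicle of the 36 genes without (horizontal) and with (vertical) a term for the library-order step, 1 panel per extract, coloured by role, with the line of equality. Points of the 2 herbs lie on the line, and in Soyo-san and Okbyeongpung-san most lie above it, ABCA1 in Okbyeongpung-san at 0.24 without and 0.47 with the term.

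At the lower doses, in the fit of 57 libraries without the step term, the calls against vehicle fell mostly on SCD. At 100 µg/mL the 5 calls of that fit were all SCD, all higher. It rose by 0.15 in Menthae Herba (adjusted p = 0.0297), where 0.974% of all genes were called and 0.556% were higher. It rose by 0.15 in Saposhnikoviae Radix (adjusted p = 0.0345; 0.666% called, 0.371% higher) and by 0.15 in Saengmaek-san (adjusted p = 0.0482; 0.666% called, 0.411% higher). It rose by 0.17 in Guibi-tang (adjusted p = 0.0116; 1.41% called, 0.869% higher) and by 0.15 in Okbyeongpung-san (adjusted p = 0.0348; 1.37% called, 0.73% higher). The Okbyeongpung-san 100 libraries, at 1150, 1045 and 1172 CPM, overlapped with vehicle, and lie after the step. Without the term no member was called in Soyo-san 100 (1.77% of all genes), whose libraries also lie after the step. The 5 SCD calls were all lost with library totals in place of TMM factors (adjusted p 0.0991 to 0.554). They were also all lost with no filter on low counts (adjusted p 0.0967 to 0.345).

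At 20 µg/mL, again without the term, SCD was called in 3 extracts. It rose by 0.19 in Saposhnikoviae Radix (adjusted p = 0.00365), where 0.991% of all genes were called and 0.713% were higher. It rose by 0.17 in Guibi-tang (adjusted p = 0.00873; 1.35% called, 0.8% higher) and by 0.16 in Okbyeongpung-san (adjusted p = 0.0178; 1.09% called, 0.603% higher). FADS1 had 396.4, 385.9 and 397.0 CPM in Saposhnikoviae Radix 20, against 337.8, 341.1 and 342.9 CPM in vehicle. The groups did not overlap, and all 6 fits without 1 library kept the call (0.21 ± 0.0426, adjusted p = 0.00522). With library totals in place of TMM factors FADS1 was at 0.24 there and was not called (adjusted p = 0.135). Without the term no member was called in Menthae Herba 20 (0.382% of all genes) or Saengmaek-san 20 (0.452%). SCD lay above vehicle in 18 of 18 comparisons, HMGCS1 and INSIG1 below it in 17 of 18, and the exception for both was Menthae Herba 500; with the step term HMGCS1 lay above vehicle in 4 of the 18. All 18 share the same 3 vehicle libraries, a set of their own by library name, so extract and set cannot be told apart in them. Leaving out vehicle replicate 1 or 3 took the 5 calls at 100 µg/mL to 0. At 20 µg/mL they went to 3 without vehicle replicate 1 and 1 without replicate 3.

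With the step as a term the calls at the lower doses spread over more members, and those named here were chosen after their values were seen. At 100 µg/mL there were 24 calls: FADS1 was higher in all 6 extracts (0.12 to 0.16), SCD higher in 5 and INSIG1 lower in 4 (-0.28 to -0.19). ABCA1 and LSS were higher in Soyo-san and Okbyeongpung-san, and ACACA in Menthae Herba and Soyo-san. Soyo-san 100, with no call without the term, had 7 with it: ABCA1 (0.26), LSS (0.28), STARD4 (0.27), ACACA and FADS1 were higher, and INSIG1 (-0.28) and SC5D (-0.24), a sterol desaturase, were lower. The remaining call was HMGCS1, lower in Saposhnikoviae Radix. The share of all genes called at 100 was 3.38% in Menthae Herba, 2.05% in Saposhnikoviae Radix, 1.03% in Saengmaek-san, 2.58% in Guibi-tang, 7.18% in Soyo-san and 7.05% in Okbyeongpung-san.

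At 20 µg/mL there were 19 calls with the term. INSIG1 was lower in 5 extracts (-0.27 to -0.16), all but Saposhnikoviae Radix, and FADS1 and SCD were each higher in 4. LSS was higher in 3 extracts, ABCA1 in 2 and STARD4 in 1. Menthae Herba 20 had 3 of these calls (FADS1, SCD and INSIG1) and Saengmaek-san 20 had 1 (INSIG1, at -0.18). The share of all genes called was 1.72% in Menthae Herba, 3.23% in Saposhnikoviae Radix, 0.979% in Saengmaek-san, 2.12% in Guibi-tang, 4.56% in Soyo-san and 9.53% in Okbyeongpung-san. From the libraries before the step alone, Menthae Herba had 5 members called at 100 (6.09% of all genes) and 4 at 20 (4.14%), Saposhnikoviae Radix 5 at 100 (3.64%) and 4 at 20 (5.97%), and Saengmaek-san 3 at 100 (1.15%) and 2 at 20 (1.08%). All of these comparisons share the vehicle libraries.

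The comparison of 500 with 20 µg/mL within an extract uses no vehicle library, and it asks whether the level changed with dose. It called members in Menthae Herba alone, where 2.43% of all genes were called, 0.898% higher, and 2 members, both higher. INSIG1 had 39.4, 42.4 and 42.3 CPM in Menthae Herba 500, against 34.4, 36.1 and 33.1 CPM in Menthae Herba 20. The groups did not overlap, at 0.26 ± 0.052 (adjusted p = 0.0012), and all 6 fits without 1 library kept the call, at 0.23 to 0.30. HMGCS1 had 186, 176 and 185 CPM in Menthae Herba 500, against 169, 161 and 161 CPM in Menthae Herba 20. It rose by 0.15 ± 0.0445 (adjusted p = 0.0495), a call that 4 of the 6 fits without 1 library lost, with adjusted p up to 0.222. All these libraries lie before the step, and libraries before the step alone gave 0.26 for INSIG1 and 0.16 for HMGCS1, with ACSS2, the acetate-to-acetyl-CoA ligase, higher by 0.20 and ACLY lower, at -0.10 (5.03% of all genes called). In means along the dose series of Menthae Herba, INSIG1 was at 38.5 ± 1.48 CPM in vehicle, 34.5 ± 1.49 at 20, 35.8 ± 0.578 at 100 and 41.4 ± 1.72 at 500 µg/mL (SD, n = 3 each). The mean at 20 thus lay below vehicle and the mean at 500 above it. Against vehicle INSIG1 was called at neither dose in the fit of 57 libraries. With the step term it was called lower at 20 and was not called at 500. At 500 the log2 fold change was 0.10, and the libraries overlapped with vehicle (39.39 CPM against 40.2 CPM), which is a set of its own.

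In the other 5 extracts no member passed at 500 against 20, where 0.0811% of all genes were called in Saposhnikoviae Radix, 0.0% in Saengmaek-san, 0.997% in Guibi-tang, 0.614% in Soyo-san and 0.0985% in Okbyeongpung-san. ABCA1 in Guibi-tang had 17.27, 19.01 and 16.00 CPM at 500, against 16.4, 14.5 and 12.7 CPM at 20. The groups overlapped, at 0.26 ± 0.0774 (adjusted p = 0.0977), and ABCA1 was called without Guibi-tang 20 replicate 1 (0.36, adjusted p = 0.0138) or without Guibi-tang 500 replicate 3 (0.31, adjusted p = 0.0446), as was MVD, the mevalonate diphosphate decarboxylase (0.28 and 0.29). Guibi-tang 500 has 2 libraries before the step and 1 after, and Guibi-tang 20 has 1 before and 2 after, and each of these omissions leaves one group wholly on 1 side. With the step term, ABCA1 was at 0.19 (adjusted p = 0.132) and MVD at 0.18 (adjusted p = 0.184), and neither was called (1.2% of all genes called). INSIG1 in Soyo-san was at 0.14 ± 0.0525 with groups that did not overlap (adjusted p = 0.376), and in Saposhnikoviae Radix at -0.10 ± 0.0524 (adjusted p = 1.0).

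The change with dose was also compared between extracts, in 5 pairs. Of 180 values, 1 was called: INSIG1 in Menthae Herba minus Saposhnikoviae Radix. The 500-against-20 change was 0.26 in Menthae Herba and -0.10 in Saposhnikoviae Radix, and the difference was 0.35 ± 0.0738 (adjusted p = 0.0145; 0.197% of all genes called, 0.0695% higher). Libraries before the step alone gave a difference of 0.35 (adjusted p = 0.00086; 0.598% of all genes called). It was lost in 4 of 12 fits without 1 library, with adjusted p of 0.0601 to 0.08. HMGCS1 in this pair was at 0.17 ± 0.0629 (adjusted p = 0.547). For Soyo-san and Menthae Herba, a herb it contains, INSIG1 differed by -0.11 ± 0.0739 and HMGCS1 by -0.08 ± 0.063 (adjusted p = 1.0 for both), so their dose responses were not shown to differ, and no member passed (0.296% of all genes called). No member passed for Okbyeongpung-san minus Saposhnikoviae Radix (0.0464% of all genes), Saengmaek-san minus Guibi-tang (0.296%) or Soyo-san minus Okbyeongpung-san (0.029%).

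The Soshiho-tang library at 500 µg/mL stood apart from the other 59 libraries for these genes. With 1 library per dose there is no spread and no test. Of the 36 members, 29 had their highest level of all 60 libraries there, against 6.54% of all genes tested. On the ratio of CPM + 0.5 to the vehicle mean, 27 members were past a log2 of 0.25 (14.7% of all genes) and 1 was below -0.25 (11.4%), with a member median of 0.33 and a median of 0.0 over all genes. At 100 µg/mL 0 members were above 0.25 (7.35% of all genes) and 1 below -0.25 (6.92%), with a median of 0.0080, and at 20 µg/mL 0 were above (7.36%) and 1 below (7.58%), with a median of -0.026. Against the vehicle range, 32 members lay above and 3 below at 500 (36.9% and 36.2% of all genes), 14 above and 10 below at 100 (32.3% and 31.1%), and 10 above and 15 below at 20 (32.3% and 32.1%). The 1 past the lower fold was PMVK at every dose, the gene with the widest gap between libraries before and after the step.

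INSIG1 was at 34.0 CPM at 20, 33.0 at 100 and 73.4 at 500 µg/mL of Soshiho-tang, beside 37.5 to 40.2 in vehicle and 31.6 to 42.4 in the 54 libraries of the other 6 extracts. Its log2 ratio to the vehicle mean at 500 was 0.92. SCD was at 1041, 1113 and 1770 CPM at 20, 100 and 500 µg/mL, a log2 ratio of 0.80 at 500. HMGCS1 was at 155.5, 165.0 and 221.7 CPM, a log2 ratio of 0.38. In each case the 20 and 100 libraries lay within or near the levels of the other groups and the 500 library above all of them.

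All 4 genes of sterol sensing and transport had their highest level in that library, with log2 ratios from 0.31 (SREBF2) to 0.92 (INSIG1) and a median of 0.56; STARD4 was at 0.66 and SREBF1 at 0.47. Of the 18 sterol synthesis genes 15 had their highest level there, with a median of 0.33. They were led by MSMO1, a methylsterol oxidase (0.63), MVK (0.56), DHCR7, the last reductase of cholesterol synthesis (0.48), and SQLE, squalene epoxidase (0.42). ACAT2 (0.04), EBP (-0.10) and PMVK (-0.30) were the exceptions. Of the 8 fatty acid genes 7 had their highest level there, with a median of 0.36, and ACLY was at 0.0023. FADS1 was at 0.50, FADS2 at 0.40, ELOVL6 at 0.39 and FASN at 0.32. Of the 6 LXR genes 3 did, ABCA1 (0.46), NR1H3 (0.30) and MYLIP (0.29), a ubiquitin ligase for lipoprotein receptors. NR1H2 was at -0.11.

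The Soshiho-tang libraries lie after the step and the vehicle libraries before it. Set against its own lower doses, which lie on the same side, the 500 library was higher by a member median of 0.34 over 20 µg/mL and 0.31 over 100 µg/mL, with 24 members (14.3% of all genes) and 23 members (12.7%) past 0.25 and 0 below -0.25 (10.9% and 9.60%). The mitochondrial share was 14.9% at 500, 14.8% at 100 and 14.3% at 20 µg/mL, and the totals were 22309587 to 23490190 counts. Whether a second library would give the same levels was not tested.

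**Figure D4:**
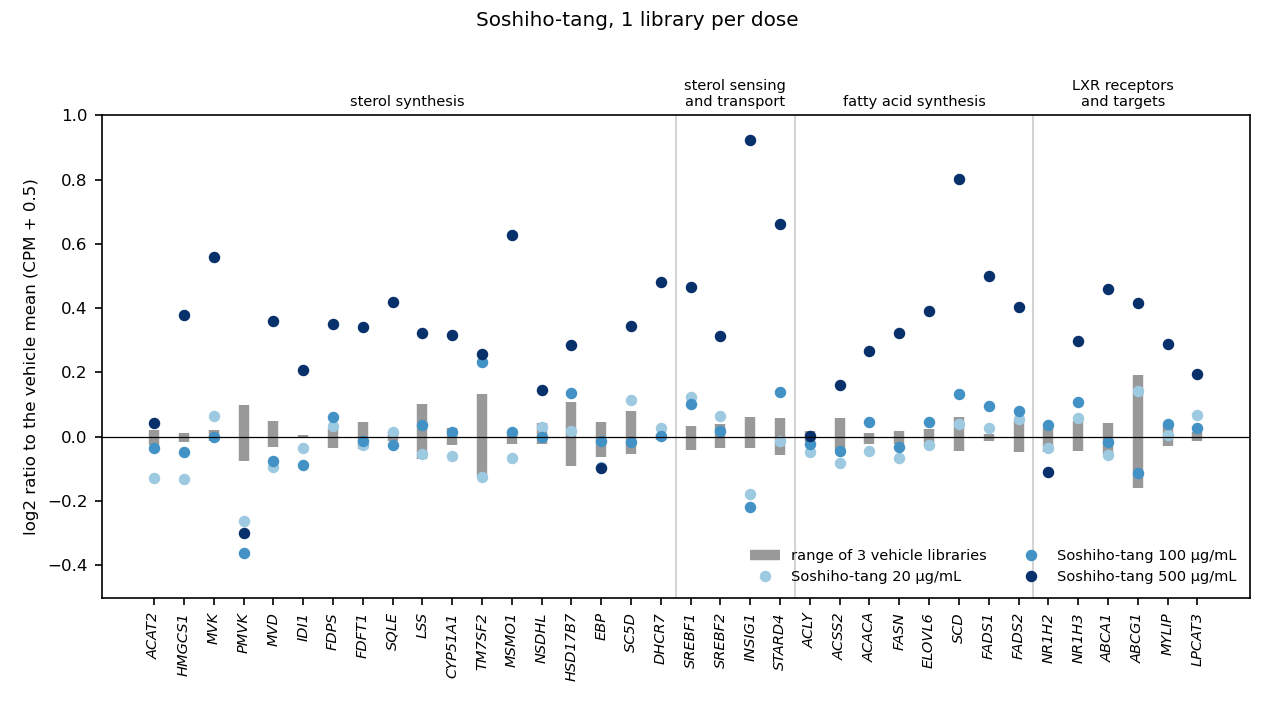
Log2 ratio of CPM + 0.5 to the vehicle mean for the 36 genes (horizontal axis, grouped by role) in the single Soshiho-tang libraries at 20, 100 and 500 µg/mL; grey bars are the range of the 3 vehicle libraries. At 500 µg/mL 32 of 36 genes lay above the vehicle range and 3 below, with INSIG1 at 0.92 and SCD at 0.80.

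Further genes of the same pathways, 34 of 35 of which passed the filter, gave 5 calls at 500 against vehicle, all higher. In Guibi-tang 3 of the 34 were called, against 4.42% of all genes: NPC1 (0.22, adjusted p = 0.00192) and NPC2 (0.29, adjusted p = 0.00141), which move cholesterol out of lysosomes, and ACSL4, an acyl-CoA synthetase of polyunsaturated fatty acids (0.21, adjusted p = 0.00658). ACSL4 also rose in Soyo-san (0.18, adjusted p = 0.0173; 1 of 34, against 6.03% of all genes), across the step; with the step term it was at 0.15 (adjusted p = 0.0733). LPIN1, a phosphatidate phosphatase, rose in Menthae Herba (0.26, adjusted p = 1.08e-05; 1 of 34, against 6.77%). At 500 against 20, NPC2 rose in Guibi-tang (0.33, adjusted p = 0.00119; 1 of 34, against 0.997%), between groups that lie unequally across the step, and with the step term it was at 0.31 (adjusted p = 0.00166). In Menthae Herba 3 of 34 were called at 500 against 20 (2.43% of all genes): LPIN1 rose (0.25, adjusted p = 2.49e-05) while NPC1 (-0.23, adjusted p = 0.00176) and the elongase ELOVL5 (-0.18, adjusted p = 0.000314) fell. At 100 against vehicle ACSL4 rose in Okbyeongpung-san (0.20, adjusted p = 0.0332; 1 of 34, against 1.37%), across the step, and with the step term it was at 0.16 (adjusted p = 0.0728). HACD3, a dehydratase of fatty acid elongation, fell in Saengmaek-san 100 (-0.12, adjusted p = 0.025; 1 of 34, against 0.666%). At 20 none passed in that fit.

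Across the means of the 19 replicated groups, the genes whose log2 level followed HMGCS1 most closely among 17255 others were WTIP (Pearson's r = 0.87), ADM (0.85), CDCA7L (0.84), NR5A2 (0.83) and MDGA1 (0.83), none of them a member. INSIG1 came 19th, at 0.80, and ACSS2 54th, at 0.75, while SREBF1 was at -0.54 and FADS2 at -0.68. These are descriptions over 19 points that share the step. Within the 7 groups before the step HMGCS1 and INSIG1 had r = 0.93, and within the 6 groups after it 0.62.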

How the data were processed

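The authors deposited a table of expected counts per gene for 60 A549 libraries (60675 genes, whole-library table). Reads of 100 bases, paired, came from a directional library kit, per the labels' protocols. FastQC 0.11.9, Trim Galore 0.6.5, STAR 2.7.3a, RSEM 1.3.3 and the build hg38 are named, per the submitters' processing notes; the annotation release and the strand setting of the counting are not given in the sources used here.

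Expected counts, 10.5% of which were not whole, were rounded. Symbols were matched for 56558 genes from a gene name table and 497 from GENCODE 29. One edgeR 4.0.16 quasi-likelihood fit (R 4.3.3, TMM factors, filterByExpr, 17256 genes) covered the 57 libraries of the 19 groups of 3. Benjamini-Hochberg adjustment ran over all genes within a comparison, with calls at an adjusted p under 0.05. Soshiho-tang, with 1 library per dose, was described by ratios of CPM + 0.5. Levels are TMM-scaled CPM, except those of the cell type markers, which are CPM by library totals without TMM factors. The fit was tested on simulated data, for Guibi-tang 500 against vehicle alone. Those counts were independent and held no step or set, so the test cannot show how the fit behaves with them. Alternatives were DESeq2 1.42.0, RLE factors, library totals, no filter, a replicate block, a step term, libraries on 1 side of the step, and each library left out. No 2 libraries of a group agreed within sampling noise. The same replicate number went with correlated deviations in all 3 pairs only for Saengmaek-san 500 and 20 (0.25, 0.36 and 0.55). In both of these groups replicates 1 and 2 lie before the step and replicate 3 after it, so replicate number and step cannot be told apart there.

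The members and lists were chosen with earlier results of these data known. In the fit of all 57 libraries the text names up to 6 called members per comparison; in the fits that account for the step, the called members it names were chosen after their values were seen. It follows HMGCS1, INSIG1, SREBF1, SREBF2, FASN, SCD, ABCA1, ABCG1 and NR1H3.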

Additional observations from a re-analysis of the deposited data

Results flagged for a closer look

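INSIG1 was flagged because its change from 20 to 500 µg/mL differed between the herbs by a test of the difference itself: it was 0.26 in Menthae Herba and -0.10 in Saposhnikoviae Radix on the log2 scale, a difference of 0.35 ± 0.0738 (SE; adjusted p = 0.0145, edgeR's quasi-likelihood test). All 12 libraries lie before the step. The difference was 0.33 to 0.39 in the 12 fits without 1 library, of which 4 had adjusted p over 0.05.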

How the results depend on the processing

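Counts of members called, with all 57 libraries beside each alternative, moved as follows. With the step term they were 6 for Menthae Herba, 5 for Saposhnikoviae Radix, 1 for Saengmaek-san, 6 for Guibi-tang, 4 for Soyo-san and 6 for Okbyeongpung-san at 500 against vehicle, 4 for Menthae Herba 500 against 20, 24 summed at 100 and 19 summed at 20. From libraries before the step they were 10, 9 and 7 for Menthae Herba, Saposhnikoviae Radix and Guibi-tang at 500, and 4 for Menthae Herba 500 against 20; summed counts and groups with under 2 libraries on a side gave no value. With library totals they were 0 for Menthae Herba, 1 for Guibi-tang and 1 for Okbyeongpung-san at 500, 1 for Menthae Herba 500 against 20, and 3 summed at 100 and at 20. None of the SCD calls made with TMM factors at 100 was kept there. At 20 only that of SCD in Saposhnikoviae Radix was kept (adjusted p = 0.0409). With DESeq2 the counts of members were 3 for each herb at 500 and 10 summed at 20. With no filter the counts were 1 for Guibi-tang and Soyo-san at 500, 1 for Menthae Herba 500 against 20 and 1 summed at 100. The SCD calls at 100 were again all lost. With library totals every call of FADS1, HMGCS1, IDI1, ABCA1 and SREBF1 was lost (adjusted p 0.133 to 0.363), and every INSIG1 call was kept. With no filter FADS1 in Saposhnikoviae Radix 20 (adjusted p = 0.0158) and HMGCS1 in Okbyeongpung-san 500 (adjusted p = 0.0332) were kept. Other calls of FADS1, HMGCS1, IDI1, ABCA1 and SREBF1 were lost there, as was INSIG1 in Okbyeongpung-san 500 (adjusted p = 0.142). Shares of all genes called with library totals, DESeq2 and no filter are not given here. Their member counts are therefore not set against all genes. PMVK in Okbyeongpung-san 500 was -0.28, and 0.19 with the step term (adjusted p = 0.32 there). Of the 18 comparisons with vehicle, HMGCS1 was above 0 in 1, and in 4 with the step term; FASN in 7, and in 14; NR1H3 in 17, and in 10. Without 1 library, counts ran from 0 to 1 for each herb at 500, 1 to 3 for Guibi-tang, 0 to 2 for Okbyeongpung-san, 1 to 2 for Menthae Herba 500 against 20, 0 to 2 for Guibi-tang 500 against 20, 0 to 1 for the differences of the herbs and of Saengmaek-san and Guibi-tang (MVD), 0 to 6 summed at 100 and 1 to 6 summed at 20. The replicate block gave 4 members for Okbyeongpung-san 500 against vehicle, in place of 3, and changed no call of a named member; RLE factors moved none of these counts past 1.5 times. The causes were not tested. ABCG1, with 7 to 34 counts per library, had standard errors near 0.28, and even 0.39 did not pass for it.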
